A study of Mus musculus with 24 samples.

Results

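Nes, Vim, Fabp7, Slc1a3, Prom1, Msi1, Ptprz1, Ncam1 and Nrcam are 9 genes whose products give neural progenitors and radial glia their shape, surface and metabolism. They were followed in embryoid bodies (EBs), floating aggregates of differentiating cells, made from a mouse embryonic stem cell line that carries a green fluorescent protein gene in its Sox1 locus. Treated EBs received FK506 at 100 ng/ml together with cyclosporin A at 1 ug/ml from day 3 to day 8, and untreated EBs received neither drug. Both drugs act through immunophilins to inhibit calcineurin, the calcium-dependent phosphatase that activates NFAT transcription factors, and the study's title places calcineurin in neural induction and sets it against the bone morphogenetic protein (BMP) pathway. RNA was taken at days 4, 6, 8 and 12 from 3 independent experiments, which gave 8 groups of 3 arrays (24 arrays), each group being one treatment on one day. EBs of both arms were plated at day 7 and moved to a serum-free medium at day 8. Days 8 and 12 therefore differ from days 4 and 6 in plating as well as in time. Day 12 also differs from the earlier days in medium, and in treated EBs it lies after the drugs. Each gene was chosen by name and represented by the one probe set annotated to it alone, which gave 9 genes of the 19938 with such a probe set. The rule uses no measured value, although earlier results of these arrays were known when the genes were listed.

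Values are log2 signals of an Affymetrix Mouse Gene ST 1.0 array, so a difference of 1 is a doubling, and signals of different genes are not set against each other because each probe set has its own brightness. Group values are means over 3 arrays. Differences carry the standard error (SE) and the Benjamini-Hochberg adjusted p of limma's moderated test, fitted to all 19938 genes, and a gene is said to have risen, fallen or changed where that p was under 0.05. The array medians lay between 7.80 and 7.88, and no detection calls were available. Precision is limited by the count of arrays: over all genes the SE of treated minus untreated had a median of 0.092. A gene's spread was estimated once over all 8 groups, so the SE of its treatment difference is the same on every day. The SDs within groups differed, for Fabp7 from 0.062 in treated EBs at day 6 to 0.76 in treated EBs at day 8. An EB is a mixture of cells, so fewer cells of a type and less RNA per cell cannot be told apart in any of these values.

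Radial glia are the elongated stem cells of the embryonic neural tube, which span its wall, divide at the inner surface and give rise to neurons and later to glia. They arise from the neuroepithelium and carry an intermediate filament skeleton of nestin and vimentin, a brain-type fatty acid binding protein and a glutamate transporter, and receptors and adhesion molecules through which they touch the matrix, newborn neurons and axons. Vim and Ncam1 are also well known outside the nervous system, Vim in mesenchyme and Ncam1 in early mesoderm and heart. Prom1 also marks the apical surface of other epithelia.

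The promoters of Fabp7 and Prom1 are shown because their windows held a match to a motif searched, and that of Ptprz1 because its treatment difference at day 12 was the largest of the 9 genes. RefSeq windows on the build GRCm38.p6 were found for 7 of the 9 genes, Msi1 and Ncam1 being the others. Each sequence is the 250 bases before the annotated start, written 5′ to 3′ on the gene's own strand, with capitals marking a match to one of the motifs searched. The windows are chr10:57784673-57784922 on the plus strand for Fabp7, chr5:44101737-44101986 on the minus strand for Prom1 and chr6:22875252-22875501 on the plus strand for Ptprz1.
Fabp7: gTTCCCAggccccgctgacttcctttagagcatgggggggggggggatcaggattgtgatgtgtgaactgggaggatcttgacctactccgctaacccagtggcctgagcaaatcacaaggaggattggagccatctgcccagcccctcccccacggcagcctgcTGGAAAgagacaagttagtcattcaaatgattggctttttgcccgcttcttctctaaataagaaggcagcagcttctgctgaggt
Prom1: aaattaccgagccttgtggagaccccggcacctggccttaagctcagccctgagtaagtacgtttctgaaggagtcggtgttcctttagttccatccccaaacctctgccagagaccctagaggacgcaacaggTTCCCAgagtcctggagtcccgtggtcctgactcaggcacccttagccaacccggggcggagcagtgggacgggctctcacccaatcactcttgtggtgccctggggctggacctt
Ptprz1: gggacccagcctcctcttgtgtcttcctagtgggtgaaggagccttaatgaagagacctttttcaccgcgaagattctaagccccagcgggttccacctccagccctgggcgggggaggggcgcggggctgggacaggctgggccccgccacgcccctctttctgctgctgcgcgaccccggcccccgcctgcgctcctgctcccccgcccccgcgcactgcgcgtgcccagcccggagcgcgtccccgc

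The motifs searched on both strands were TGGAAA (the NFAT core), TGGGAA (RBPJ, the DNA-binding partner of Notch), ACAAAG and ACAATG (SOX factors), ATGCAAAT (the octamer of POU factors), CAGCTG (the E-box of proneural factors) and CACGTG (the E-box of Hes and Hey factors). No match overlapped another. The Fabp7 window held TGGAAA on the gene's strand 85 to 80 bases before the start and TGGGAA on the opposite strand 249 to 244 bases before it, where the printed strand reads TTCCCA. The Prom1 window held TGGGAA on the opposite strand 116 to 111 bases before the start, and a second Prom1 window, of another start, held TGGAAA 206 to 201 bases before it. The windows of Ptprz1, Nes, Slc1a3, Vim and Nrcam held none of the 7 motifs. Among 32851 RefSeq windows of the same length, 18.6% held TGGAAA and 21.6% held TGGGAA, 16.5% ACAAAG, 10.7% ACAATG, 1.60% ATGCAAAT, 13% CAGCTG and 6.02% CACGTG. G and C made up 71.6% of the Ptprz1 window, 54.8% of the Fabp7 window and 59.2% of the first Prom1 window, against a median of 52.4% over all windows. These matches describe letters and were not tested as binding sites.

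The untreated EBs were first compared between days, to describe how the 9 genes are used as neural tissue forms. All 9 genes rose between day 4 and day 12, a comparison in which 57.2% of all genes were called and 27.0% rose, with a median difference of 1.77 for the 9 genes and -0.062 for all genes. They did not climb evenly: Nes, Vim, Prom1, Msi1 and Ncam1 rose at day 6, Nes, Slc1a3 and Prom1 fell at day 8 relative to day 6, and all 9 rose at day 12 relative to day 8. Among all genes, 42.0% were called at day 6 relative to day 4 (21.1% higher), 36.1% at day 8 relative to day 6 (17.8% higher and 18.3% lower), and 38.7% at day 12 relative to day 8 (18.8% higher). At day 8, Fabp7, Vim and Ncam1 rose while 3 genes fell, so the median of the 9 differences was 0.22, beside 0.035 for all genes.

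The largest late rise in untreated EBs was that of Fabp7, the brain fatty acid binding protein of radial glia. Its mean signal was 9.88, 9.89, 10.87 and 13.18 at days 4, 6, 8 and 12. It stood 2.30 higher at day 12 than at day 8 (SE 0.29, adjusted p = 1.52e-06), or 4.94-fold. Ptprz1 read 6.35, 6.79, 7.12 and 9.03, with neither of its earlier steps called, and its day 12 signal exceeded that of day 8 by 1.91 (SE 0.19, adjusted p = 6.85e-08). Ncam1 and Vim rose at each step, Ncam1 through 8.16, 8.68, 9.50 and 10.94 and Vim through 12.36, 12.66, 13.31 and 13.62. Nes, by contrast, read 8.31, 9.42, 8.78 and 10.08, a rise, a fall of 0.64 at day 8 (SE 0.17, adjusted p = 0.00677) and a second rise. Prom1 followed the same up, down and up course at 9.47, 10.31, 9.68 and 10.40, and its day 12 mean exceeded its day 6 mean by 0.092 (adjusted p = 0.736). The day 8 fall of Nes was lost without untreated replicate 1 of day 8 (adjusted p = 0.0508), that of Prom1 without the same array (0.0951) or untreated replicate 2 of day 6 (0.0625), and the day 8 rise of Fabp7 without untreated replicate 2 of day 6 (0.0813) or replicate 3 of day 8 (0.0531).

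**Figure D1:**
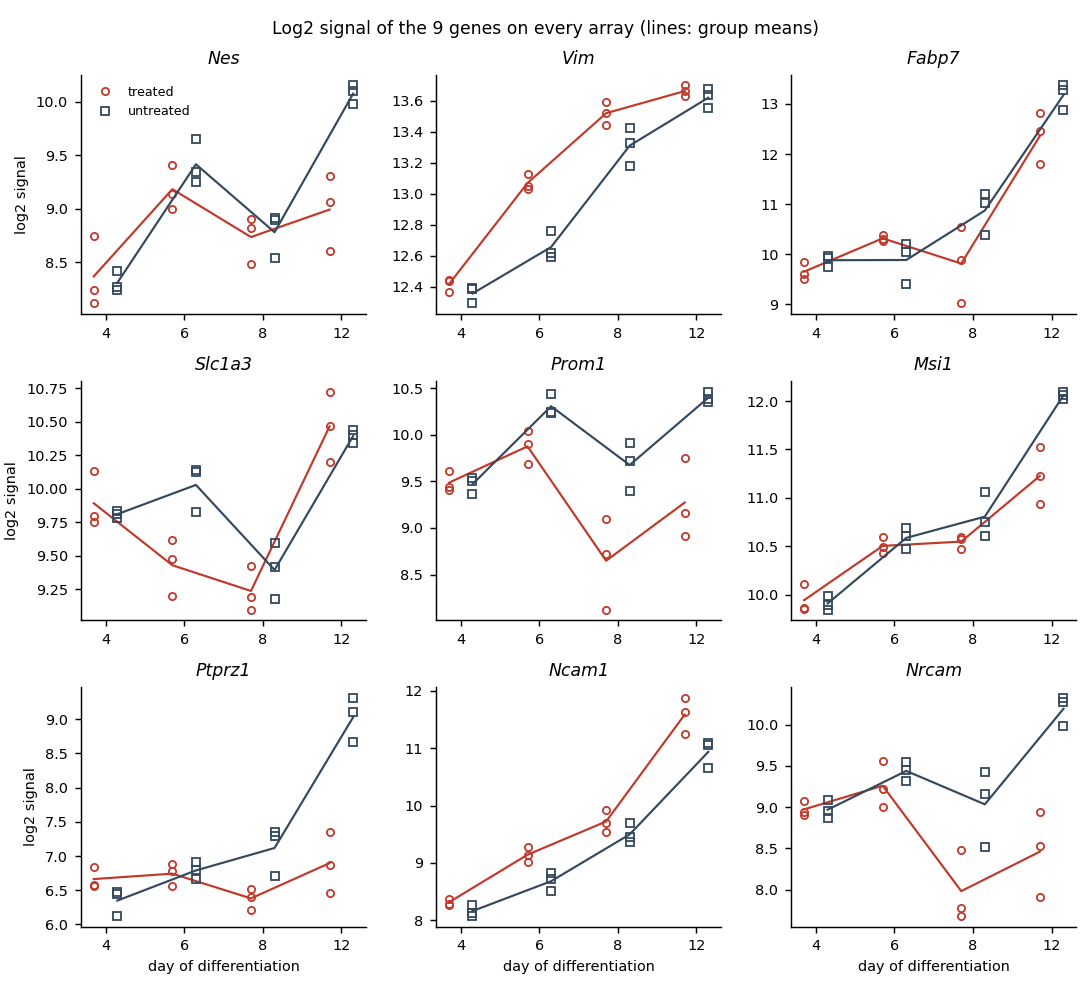
Log2 signal (vertical axes) of the 9 genes by day of differentiation (horizontal axes, days evenly spaced), with treated EBs as red circles left of untreated EBs as blue squares. Each point is 1 array and the lines join group means. At day 12 the 3 treated arrays lie below the 3 untreated ones for Nes, Fabp7, Prom1, Msi1, Ptprz1 and Nrcam and above them for Ncam1.

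In treated EBs, 6 of the 9 genes rose between day 4 and day 12 (Nes, Fabp7, Slc1a3, Vim, Msi1 and Ncam1), in a comparison that called 55.0% of all genes (24.6% higher), and 3 did not pass. Those 3 were Ptprz1 (difference 0.23, adjusted p = 0.329), Prom1 (-0.21, adjusted p = 0.375) and Nrcam (-0.51, adjusted p = 0.0645). Without treated replicate 2 of day 12, Prom1 (-0.45, adjusted p = 0.0467) and Nrcam (-0.75, adjusted p = 0.00965) passed as lower. At day 6 relative to day 4, Nes, Vim, Msi1 and Ncam1 rose and Slc1a3 fell (44.2% of all genes called, 19.1% higher and 25.1% lower), and at day 8 relative to day 6, Vim and Ncam1 rose and Nes, Prom1 and Nrcam fell (41.5% called, 16.8% higher and 24.7% lower). The day 8 falls were those of Prom1, by 1.23 (SE 0.19, adjusted p = 3.31e-05), of Nrcam, by 1.28 (SE 0.23, adjusted p = 0.00014), and of Nes, by 0.45 (SE 0.17, adjusted p = 0.04). The day 6 fall of Slc1a3 was lost without treated replicate 1 of day 4 or of day 6 (adjusted p = 0.0642 and 0.0653). The Nes fall at day 8 did not pass after quantile normalization (-0.33, adjusted p = 0.121) or centring on the array median (-0.40, adjusted p = 0.0592), nor without treated replicate 2 or 3 of day 6 or of day 8, where its adjusted p lay between 0.0574 and 0.175.

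Treated and untreated EBs were then compared at each day, to ask when the drugs changed these genes and in which direction. One day into treatment, at day 4, none of the 9 genes was called by limma, 0 had an unadjusted p under 0.05, and 0.00502% of all genes were called. At day 6, with 1.84% of all genes called (1.26% higher and 0.577% lower), Vim was higher and Slc1a3 lower in treated EBs, and the other 7 genes did not pass. At day 8, the last day of treatment, 4 of the 9 genes were lower (Fabp7, Prom1, Ptprz1 and Nrcam) and none was higher, beside 8.93% of all genes called and 4.08% called lower. When limma was given the day 8 arrays alone, none of these 4 passed (adjusted p between 0.139 and 0.197), and limma called 0 of all 19938 genes, 3969 of them having an unadjusted p under 0.05. At day 12, 4 days after the drugs, 5 were lower (Nes, Prom1, Msi1, Ptprz1 and Nrcam) and Ncam1 was higher, beside 17.9% called, 10.4% lower and 7.49% higher among all genes. The median treatment difference of the 9 genes was 0.059, -0.083, -0.26 and -0.83 at days 4, 6, 8 and 12, and over all genes it was 0.034, 0.0040, -0.044 and 0.016. Counted by arrays alone, treated and untreated EBs did not overlap for 2 of the 9 genes at day 4, both higher, 5 at day 6 (3 higher, 2 lower), 5 at day 8 (1 higher, 4 lower) and 7 at day 12 (1 higher, 6 lower). Over all genes the share with such higher arrays was 8.19%, 12.1%, 9.37% and 15.4% at days 4, 6, 8 and 12, and the share with such lower arrays was 9.44%, 14.2% and 17.1% at days 6, 8 and 12.

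**Figure D2:**
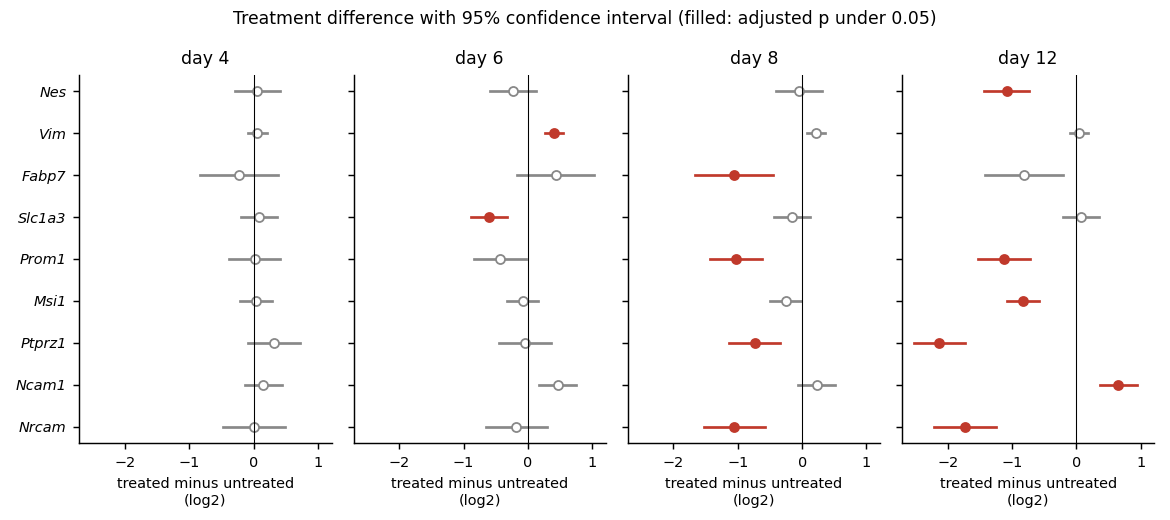
Treated minus untreated log2 signal (horizontal axes) of the 9 genes at each day, with the 95% confidence interval of limma's fit as a line. Filled red points passed an adjusted p of 0.05, as 0, 2, 4 and 6 genes did at days 4, 6, 8 and 12.

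The 2 intermediate filament genes were called on different days. Nes encodes nestin, the filament protein that gives neural stem cells their usual marker, and Vim encodes vimentin, the partner with which nestin assembles. At day 12, Nes read 8.61, 9.31 and 9.06 in treated EBs, against 10.15, 9.98 and 10.10 in untreated EBs. Every treated array lay below every untreated one. Nes was lower by 1.09 on the log2 scale (SE 0.17, adjusted p = 0.00012), a 2.12-fold difference. At day 8 the arms overlapped, with 8.90, 8.48 and 8.82 in treated EBs against 8.54, 8.89 and 8.91 in untreated EBs, and the difference was -0.045 with a 95% confidence interval from -0.40 to 0.31 (adjusted p = 0.901). The change in the Nes treatment effect between these days was itself tested as an interaction and was -1.04 (SE 0.24, adjusted p = 0.015), beside 5.20% of all genes called in that comparison and 2.57% in that direction. In the order of the 8 group means, untreated EBs at day 12 stood alone at the top, and the treated day 12 mean of 8.99 lay between untreated day 8 (8.78) and treated day 6 (9.18) without differing from either (adjusted p = 0.373 and 0.349).

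Vim was called at day 6 instead. At day 6 it read 13.13, 13.03 and 13.05 in treated EBs, against 12.76, 12.59 and 12.62 in untreated EBs, with no overlap. The difference was 0.41 (SE 0.068, adjusted p = 0.00167), or 1.33-fold. At day 8 the treated arrays, at 13.59, 13.45 and 13.52, again lay above the untreated ones, at 13.42, 13.18 and 13.33, with a difference of 0.21 (adjusted p = 0.0565, and 0.0227 with the replicate number as a block within the day). That comparison passed in 9 of 15 other settings, with adjusted p between 0.00742 and 0.33. At day 12 the arms met, at 13.70, 13.63 and 13.66 in treated EBs and 13.67, 13.55 and 13.63 in untreated EBs, a difference of 0.043 with an interval from -0.10 to 0.18. The change in the Vim effect between days 6 and 8 was -0.20 (adjusted p = 0.435), and that between days 6 and 12 was not tested. In both arms the Vim means followed the days in order, and at days 6 and 8 the treated mean lay above the untreated mean of the same day and below the mean of the next day in either arm.

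Fabp7 and Slc1a3 are the metabolic and transport genes of radial glia among the 9. Fabp7 binds docosahexaenoic acid and other fatty acids in radial glia and is a known Notch target. At day 8 it read 9.02, 10.54 and 9.89 in treated EBs, against 10.39, 11.03 and 11.20 in untreated EBs. Treated replicate 2 exceeded untreated replicate 1, so the groups overlapped, and the fit gave a difference of -1.06 (SE 0.29, adjusted p = 0.0255). Without treated replicate 1, the lowest array, the difference was -0.66 (adjusted p = 0.246), the call was also lost without treated replicate 3 (0.0758) or untreated replicate 2 (0.125) or 3 (0.0994), and over 15 other settings the adjusted p lay between 0.00099 and 0.246. At day 12 the 3 treated arrays, at 11.79, 12.82 and 12.47, all lay below the untreated ones, at 13.37, 12.88 and 13.28, although treated replicate 2 missed untreated replicate 2 by little. That difference of -0.82 (SE 0.29) had an adjusted p of 0.0553, and of 0.014 with the replicate block within the day. Across 15 other settings, among them each array left out in turn, it lay between -1.04 and -0.53. Fabp7 nevertheless rose in treated EBs between day 8 and day 12 by 2.55 (SE 0.29, adjusted p = 5.6e-07), and by 2.30 in untreated EBs, and the difference between these rises was 0.24 with an interval from -0.61 to 1.09.

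Slc1a3 encodes GLAST, the glutamate transporter that radial glia carry before astrocytes appear. Its treatment difference was called at day 6, when it read 9.20, 9.62 and 9.48 in treated EBs, against 9.82, 10.14 and 10.12 in untreated EBs. All treated arrays lay below all untreated ones, and the difference was -0.60 (SE 0.14, adjusted p = 0.0193), or 1.52-fold. The call was lost when untreated replicate 2 or 3 or treated replicate 1 or 3 of that day was left out, with adjusted p between 0.0611 and 0.148, while over 15 other settings the difference lay between -0.70 and -0.48. At day 8 it read 9.42, 9.10 and 9.19 in treated EBs and 9.17, 9.59 and 9.42 in untreated EBs, a difference of -0.16 (adjusted p = 0.513). The change in the Slc1a3 effect between days 6 and 8 was 0.44 (adjusted p = 0.387), and that between days 6 and 12 was not tested. At day 12 Slc1a3 read 10.73, 10.20 and 10.47 in treated EBs and 10.40, 10.34 and 10.44 in untreated EBs, a difference of 0.072 with an interval from -0.21 to 0.35. Both day 12 groups topped the order of its means without differing from each other.

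Prom1 and Msi1 are progenitor genes of another kind. Prom1 encodes prominin-1 (CD133), a membrane protein of apical microvilli and cilia on neuroepithelial cells, and Msi1 encodes Musashi-1, an RNA-binding protein that represses translation of Numb and so bears on Notch signalling. Prom1 read 8.12, 9.10 and 8.72 in treated EBs at day 8, against 9.39, 9.92 and 9.72 in untreated EBs, and 8.91, 9.75 and 9.16 against 10.38, 10.46 and 10.35 at day 12. The groups did not overlap on either day. It was lower by 1.03 at day 8 (SE 0.19, adjusted p = 0.00269) and by 1.13 at day 12 (SE 0.19, adjusted p = 0.000273), or 2.04-fold and 2.18-fold, and the change between those effects was -0.098 with an interval from -0.66 to 0.47. At day 6 the treated arrays, at 9.68, 10.05 and 9.90, also lay below the untreated ones, at 10.25, 10.44 and 10.23, but the difference of -0.43 did not pass (adjusted p = 0.354). The lowest of the 8 Prom1 means was treated day 8 (8.65), below the day 4 means of treated (9.49) and untreated EBs (9.47).

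Msi1 read 10.93, 11.52 and 11.23 in treated EBs at day 12, against 12.02, 12.10 and 12.06 in untreated EBs. No arrays overlapped, and it was lower by 0.83 (SE 0.12, adjusted p = 4.04e-05), or 1.78-fold. At day 8 it read 10.48, 10.59 and 10.58 in treated EBs and 10.61, 10.75 and 11.06 in untreated EBs, arrays that also did not overlap, with a difference of -0.26 (adjusted p = 0.181). The effect at day 12 differed from that at day 8 by -0.57 (SE 0.17, adjusted p = 0.0473), a call that 10 of the 12 arrays decided, since leaving out any one of them gave an adjusted p between 0.0554 and 0.126. Msi1 still rose after the drugs, by 0.68 between day 8 and day 12 in treated EBs (SE 0.12, adjusted p = 0.000103) and by 1.25 in untreated EBs (SE 0.12, adjusted p = 2.54e-08).

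Ptprz1, Ncam1 and Nrcam act at the cell surface, and they gave both the largest fall and the only rise at day 12. Ptprz1 encodes a receptor tyrosine phosphatase of radial glia whose extracellular part can be a chondroitin sulphate proteoglycan and which binds pleiotrophin, midkine and contactins. It read 6.46, 7.35 and 6.87 in treated EBs at day 12, against 9.31, 8.66 and 9.11 in untreated EBs. The lowest untreated array exceeded the highest treated one by more than 1 on the log2 scale. Ptprz1 was lower by 2.13 (SE 0.19, adjusted p = 3.08e-07), a 4.38-fold difference. Its treated signal at day 12 averaged 6.90, which lay beside the means of untreated day 8 (7.12), untreated day 6 (6.79), treated day 6 (6.74) and treated day 4 (6.66) without a called step between neighbours. Those signals fell under the 40th percentile of gene means (7.61), where a log2 difference tends to understate a change, and no detection call was available to place them against background.

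At day 8, Ptprz1 read 6.22, 6.52 and 6.41 in treated EBs, against 6.70, 7.35 and 7.30 in untreated EBs. Again the arms did not overlap, and the difference was -0.74 (SE 0.19, adjusted p = 0.0198). The call was lost without treated replicate 1 (adjusted p = 0.134) or 3 (0.068) or untreated replicate 2 (0.134) or 3 (0.0778) of that day. The effect at day 12 differed from that at day 8 by -1.40 (SE 0.27, adjusted p = 0.00504). Between those days Ptprz1 rose by 0.52 in treated EBs (SE 0.19, adjusted p = 0.0432) and by 1.91 in untreated EBs, and the treated rise was lost without treated replicate 1 (adjusted p = 0.141) or 3 (0.081) of day 8 or treated replicate 2 (0.28) or 3 (0.0864) of day 12.

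Nrcam encodes a neuronal adhesion molecule of the L1 family, which binds ankyrins within the cell and contactins and neuropilins at its surface. It read 7.68, 8.49 and 7.77 in treated EBs at day 8, against 8.52, 9.42 and 9.16 in untreated EBs, and 7.91, 8.94 and 8.53 against 9.98, 10.33 and 10.27 at day 12. The arms did not overlap on either day, although untreated replicate 1 and treated replicate 2 nearly met at day 8. It was lower by 1.05 at day 8 (SE 0.23, adjusted p = 0.00709) and by 1.73 at day 12 (SE 0.23, adjusted p = 2.14e-05), or 2.07-fold and 3.32-fold. The change between these effects was -0.68 (SE 0.33, adjusted p = 0.221). Without untreated replicate 2 or treated replicate 1 of day 8, the day 8 call was lost (adjusted p = 0.0705 and 0.0695). Treated EBs at days 8 and 12 held the lowest Nrcam means of the 8 groups, 7.98 and 8.46, and the day 4 means were 8.97 in both arms.

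Ncam1 encodes the neural cell adhesion molecule and moved the other way. At day 12 it read 11.88, 11.25 and 11.63 in treated EBs, against 11.09, 10.66 and 11.06 in untreated EBs. No untreated array reached the lowest treated one, and Ncam1 was higher by 0.65 (SE 0.14, adjusted p = 0.00224), or 1.57-fold. At day 6 the treated arrays, at 9.28, 9.02 and 9.13, also lay above the untreated ones, at 8.82, 8.51 and 8.72, with a difference of 0.46 (SE 0.14, adjusted p = 0.106, and 0.00393 with the replicate block within the day). Across 15 other settings the day 6 adjusted p lay between 0.00393 and 0.494. At day 8 the arms overlapped, at 9.93, 9.54 and 9.70 in treated EBs and 9.45, 9.36 and 9.69 in untreated EBs, a difference of 0.22 (adjusted p = 0.34). Ncam1, Vim and Msi1 were the genes of the 9 whose means followed the days in order in both arms, and Ncam1 had its top mean in treated EBs at day 12 (11.59).

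The step from day 8 to day 12 was then compared between the arms. All 9 rose over it in untreated EBs, and 6 rose in treated EBs, beside 33.2% of all genes called and 16.5% higher there. In treated EBs the rise of Prom1 was lost without treated replicate 1 of day 8 (adjusted p = 0.134) or replicate 2 of day 12 (0.123). The 3 that did not pass in treated EBs were Nes (0.26, adjusted p = 0.287), Vim (0.14, adjusted p = 0.117) and Nrcam (0.48, adjusted p = 0.123), which in untreated EBs differed by 1.30, 0.31 and 1.16. The interaction was called for Nes, Ptprz1 and Msi1, all in the direction of a smaller rise in treated EBs, and had a median of -0.17 over the 9 genes beside 0.033 over all genes. With arrays of the 4 compared groups alone, none of the 3 passed, at adjusted p = 0.0552 for Nes, 0.0584 for Ptprz1 and 0.142 for Msi1. The same test between days 6 and 8 called none of the 9 genes with limma, although 6 had an unadjusted p under 0.05 (0.401% of all genes called), and between days 4 and 6 it called none, with 2 under that unadjusted p (0.0953% called). The lowest of those 6 belonged to Fabp7, whose treatment effect changed by -1.49 between day 6 and day 8 (SE 0.41, adjusted p = 0.113).

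**Figure D3:**
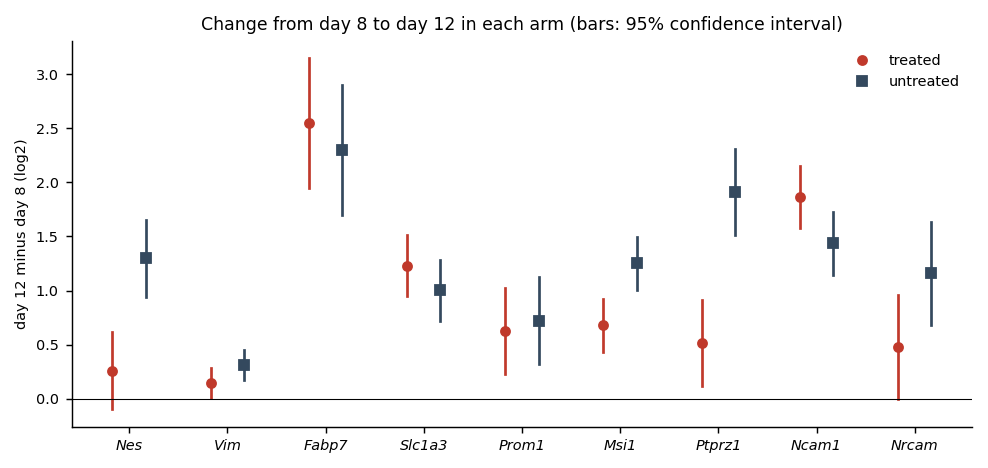
Change in log2 signal from day 8 to day 12 (vertical axis) of the 9 genes in treated EBs (red circles, left of each pair) and untreated EBs (blue squares), with 95% confidence intervals. Nes changed by 0.26 in treated and 1.30 in untreated EBs and Ptprz1 by 0.52 and 1.91, while Fabp7 changed by 2.55 and 2.30 and Ncam1 by 1.86 and 1.44.

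The relatives and partners of the 9 genes were examined to see whether a family followed its member, on lists drawn up with earlier results of these arrays known. Beside their counts stand the shares of all genes, 17.9% called at day 12, 10.4% lower and 7.49% higher. At day 8 that share was 8.93% and at day 6 it was 1.84%, and several list counts lay near these shares. Among 16 intermediate filament and filament partner genes, 5 were lower, 2 were higher and 9 did not pass at day 12, with a median difference of 0.022. The neurofilament genes Nefm (-1.06, SE 0.14, adjusted p = 1.71e-05) and Nefl (-0.94, SE 0.20, adjusted p = 0.00208) fell, while Des, the muscle filament desmin (0.70, SE 0.11, adjusted p = 0.000173), and Lmna, the nuclear lamin A/C gene (0.74, SE 0.14, adjusted p = 0.000983), rose. At day 8, 2 of the 16 were lower, Ina (-0.80, SE 0.24, adjusted p = 0.0421) and Synm (-0.24, adjusted p = 0.0335), and Prph was higher (0.58, SE 0.14, adjusted p = 0.0113).

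Of 6 other Slc1 transporter genes, 2 were lower and none higher at day 12. One was Slc1a2, the GLT-1 glutamate transporter of later astroglia, at 7.92 ± 0.25 in treated and 8.74 ± 0.23 in untreated EBs (SD, n = 3 each), a difference of -0.81 (SE 0.12, adjusted p = 5.18e-05) beside 0.072 for Slc1a3. The other was Slc1a5, a neutral amino acid carrier (-0.32, SE 0.093, adjusted p = 0.0197), and limma called none of the 6 at day 6 or day 8, where 0 and 1 of them had an unadjusted p under 0.05. Of 8 fatty acid and retinoid binding protein genes besides Fabp7, Crabp2 (-0.71, SE 0.20, adjusted p = 0.0153) and Fabp5 (-0.31, SE 0.099, adjusted p = 0.0304) were lower at day 12. The Crabp2 arrays overlapped. The median over the 8 was 0.11, and Fabp1, Fabp2, Fabp4 and Fabp6 averaged under the 40th percentile of gene means (7.61) in both arms. At day 6, Crabp1 was higher (0.70, SE 0.14, adjusted p = 0.00796) and the other 7 did not pass.

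Of 9 ligands and binding partners of the Ptprz1 product and its related phosphatase, 2 were lower and 2 higher at day 12. Ncan, the brain matrix proteoglycan neurocan (-0.87, SE 0.12, adjusted p = 2.45e-05), and Cntn1, a contactin (-0.30, adjusted p = 0.0244), were lower. Cntn6 (1.14, SE 0.18, adjusted p = 0.000116) and Ptn, the pleiotrophin ligand (0.72, SE 0.19, adjusted p = 0.00939), were higher, the Ptn arrays overlapping. Cntn6 averaged 6.64 ± 0.56 in treated and 5.50 ± 0.18 in untreated EBs (SD, n = 3 each), under the 40th percentile of gene means (7.61) in both. At day 8 the matrix glycoprotein gene Tnc averaged 10.09 ± 0.85 in treated EBs and 8.76 ± 0.35 in untreated EBs (SD, n = 3 each), a difference of 1.32 (SE 0.27, adjusted p = 0.00423), and Ncan was lower by 0.42 (adjusted p = 0.0287). Of 4 relatives and partners of prominin-1 and Musashi-1, Msi2 alone was called at day 12 (-0.17, SE 0.052, adjusted p = 0.0215), while Numb (-0.099, adjusted p = 0.456), Numbl (0.21, adjusted p = 0.206) and Prom2 (-0.083, adjusted p = 0.576) did not pass.

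Among 14 other neural immunoglobulin-type adhesion molecules and their ankyrin partners, 9 were lower and 2 higher at day 12, with a median of -0.32. Ank2, an ankyrin of axons (-0.85, SE 0.11, adjusted p = 1.52e-05), and Nfasc, the L1 family gene neurofascin (-0.70, SE 0.13, adjusted p = 0.000813), were lower with Nrcam. The contactin genes Cntn4 (1.30, SE 0.20, adjusted p = 8.12e-05) and Cntn6, at the low signals given above, were higher, as Ncam1 was. Cntn4 averaged 7.83 ± 0.71 in treated and 6.54 ± 0.11 in untreated EBs (SD, n = 3 each), the latter under the 40th percentile (7.61). Ncam2 (-0.38, adjusted p = 0.0304) and the contactin genes Cntn1, Cntn2 (-0.46, adjusted p = 0.00129) and Cntn3 (-0.30, adjusted p = 0.013) were lower, opposite to Ncam1. Nfasc was also lower at day 8 (-0.74, SE 0.13, adjusted p = 0.00226), when Alcam was higher (1.11, SE 0.19, adjusted p = 0.00194). At day 6, L1cam averaged 9.38 ± 0.40 in treated EBs and 8.12 ± 0.22 in untreated EBs (SD, n = 3 each), a difference of 1.26 (SE 0.17, adjusted p = 0.000437). Ncam1's product carries polysialic acid in the embryo, and of 6 genes of its synthesis the transferase gene St8sia2 fell at day 12 (-0.66, SE 0.11, adjusted p = 0.000221) while another, St8sia4, rose (0.43, SE 0.10, adjusted p = 0.00424). Cmas, which activates sialic acid, was lower (-0.26, adjusted p = 0.016), and the other 3 did not pass.

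**Figure D4:**
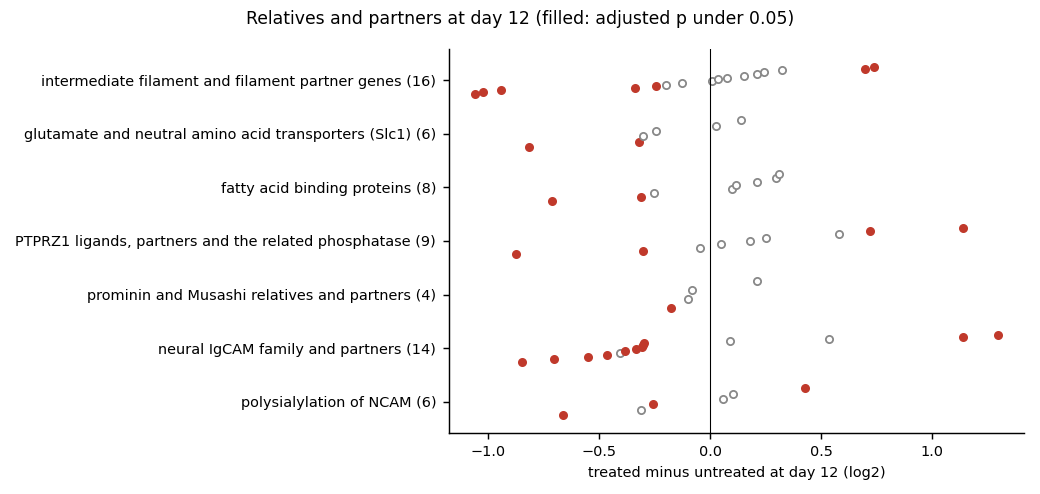
Treated minus untreated log2 signal at day 12 (horizontal axis) of the relatives and partners of the 9 genes, each point a gene and each row a list with its number of genes. Filled red points passed an adjusted p of 0.05, and in the 14 neural IgCAM genes 9 of these lie below 0 and 2 above.

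Other genes of radial glia and astroglia were examined beside them. Of 20 such genes, 3 were lower and none higher at day 12, beside 17.9% of all genes called and 10.4% lower, with a median of -0.058. The 3 were Ttyh1, a membrane protein gene of neural stem cells (-1.26, SE 0.17, adjusted p = 2.77e-05), Slc1a2 and Fabp5, and Phgdh, of serine synthesis, did not pass (-0.33, adjusted p = 0.0594). Gfap, the filament gene of mature astrocytes, read 6.75 ± 0.09 in treated and 6.74 ± 0.20 in untreated EBs at day 12 (SD, n = 3 each), under the 40th percentile of gene means in both. The name radial glia says where the 9 genes are known from, and the arrays measured whole EBs. At day 8, Tnc and Sparcl1 (0.67, SE 0.15, adjusted p = 0.00951) were higher and Aqp4 was lower (-0.24, adjusted p = 0.042), and at day 6 the N-cadherin gene Cdh2 was higher (0.64, SE 0.12, adjusted p = 0.00454).

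Regulators of neural progenitors were mostly lower in treated EBs at day 12. Of 22 transcription factor and signalling genes, 18 were lower and 1 higher at day 12, with a median of -0.74. At day 8, 11 were lower and 1 higher, with a median of -0.33. Among all genes, 10.4% were lower at day 12 and 4.08% at day 8, with medians of 0.016 and -0.044. Pax6, a homeobox gene of neural progenitors, averaged 8.33 ± 0.40 in treated EBs and 9.55 ± 0.23 in untreated EBs at day 12 (SD, n = 3 each), a difference of -1.22 (SE 0.16, adjusted p = 1.7e-05). Sox1, a neural plate gene, differed by -0.41 at day 8 (SE 0.085, adjusted p = 0.00531) and by -0.32 at day 12 (SE 0.085, adjusted p = 0.0117). Nr2e1 (-1.16, SE 0.12, adjusted p = 1.06e-06), Sox9 (-1.07, SE 0.14, adjusted p = 2.38e-05) and Fgfbp3 (-0.86, SE 0.11, adjusted p = 1.08e-05) were also lower at day 12, and Zic1 (-1.10, SE 0.17, adjusted p = 0.000736) and Emx2 (-0.68, SE 0.11, adjusted p = 0.00127) at day 8. None of the 22 was called by limma at day 6, where 2 had an unadjusted p under 0.05, Hes1, a Notch target (0.44, adjusted p = 0.0889), and Sox3 (-0.26, adjusted p = 0.0952). The lists share their arrays with the 9 genes, so the counts stand side by side and are not separate evidence.

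Markers of other cell types in an EB were examined over the same days. Between day 4 and day 12 of untreated EBs, the mesenchyme list mean went from 7.94 to 10.77 and the cardiac from 7.88 to 10.04. That of neural progenitor regulators went from 8.56 to 9.92, of neuron markers from 8.28 to 9.68 and of pluripotency markers from 11.51 to 8.05. Of all genes, 8.93% were called between the arms at day 8 (4.08% lower) and 17.9% at day 12 (10.4% lower and 7.49% higher). At day 12 all 12 neuron markers were lower in treated EBs, with a median of -0.90, and the mean of the list ran from 8.36 to 8.84 over treated arrays and from 9.43 to 9.82 over untreated arrays. Tubb3, the neuronal tubulin gene, was lower by 0.87 (SE 0.10, adjusted p = 4.53e-06) and Dcx, the doublecortin gene of young neurons, by 1.64 (SE 0.17, adjusted p = 9.44e-07). Mesenchyme markers were higher, 9 of 12 at day 8 (median 1.14) and 5 of 12 at day 12 (median 0.63), with list means from 9.28 to 10.73 in treated and 8.62 to 9.32 in untreated EBs at day 8 and from 11.31 to 11.64 and 10.58 to 10.95 at day 12. Col1a1, a collagen gene, was higher by 1.41 at day 8 (SE 0.22, adjusted p = 0.00105) and by 1.09 at day 12 (SE 0.22, adjusted p = 0.00131). None of the 12 mesenchyme markers was called by limma at day 6, 3 of them having an unadjusted p under 0.05. Col1a1 then differed by 0.47 (SE 0.22, adjusted p = 0.388), with every treated array above every untreated one.

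Of 10 endoderm and visceral endoderm markers, 4 were higher and none lower at day 8, and 5 were higher and 2 lower at day 12 (median 0.77), Ttr, the transthyretin gene, being higher by 1.69 (SE 0.39, adjusted p = 0.00981) and 1.17 (SE 0.39, adjusted p = 0.0416). The endoderm list mean ran from 9.19 to 9.43 in treated and 8.77 to 9.18 in untreated EBs at day 8, and from 9.43 to 9.73 in treated and 9.03 to 9.35 in untreated EBs at day 12. Of 10 pluripotency markers, 4 were lower at day 8 (median -0.62) and 5 higher at day 12 (median 0.56). Their list mean ran from 9.23 to 10.64 in treated and 10.40 to 10.72 in untreated EBs at day 8, where the ranges overlap, and from 8.60 to 8.86 in treated and 7.86 to 8.20 in untreated EBs at day 12. Pou5f1 (Oct4) differed by -0.82 at day 8 (SE 0.24, adjusted p = 0.0344), where its arrays overlapped, and by 1.16 at day 12 (SE 0.24, adjusted p = 0.00168). Of 10 cardiac markers, 2 were higher at day 8 and 1 at day 12, Hand2 among them on both days (1.16 and 1.08). The cardiac list mean was 8.61 in treated and 8.50 in untreated EBs at day 8, and 10.12 and 10.04 at day 12. Among all genes 8.93% were called at day 8 and 17.9% at day 12, and some counts of these lists lay near or below those shares. Of 9 epithelium markers, 2 were lower at day 8 and 1 at day 12, and of 9 neural crest and oligodendrocyte markers, 2 were higher at day 8, and 2 higher and 2 lower at day 12. Without detection calls, no marker of these lists can be called absent. The part of these cell types in the treatment differences of the 9 genes was not tested.

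**Figure D5:**
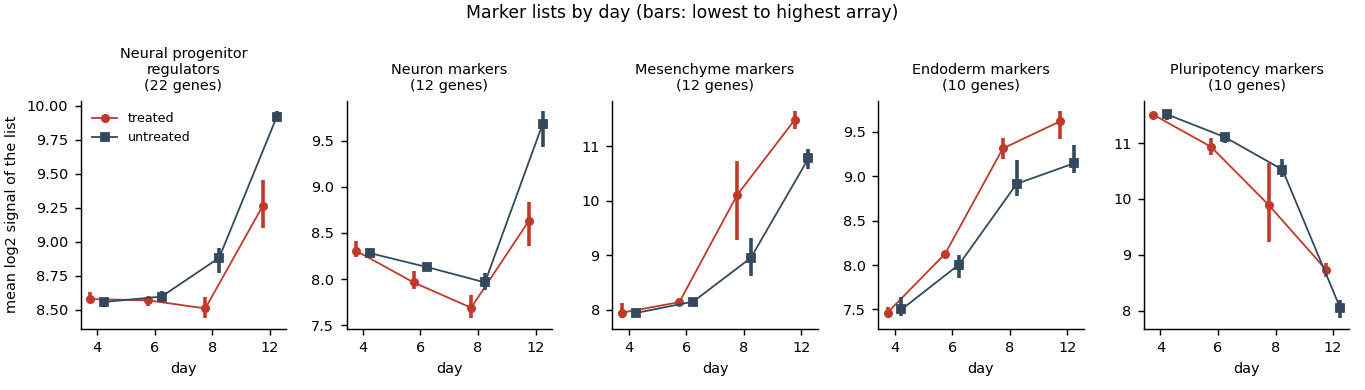
Mean log2 signal (vertical axes) of 5 marker lists by day (horizontal axes, evenly spaced) in treated EBs (red circles, left) and untreated EBs (blue squares), bars running from the lowest to the highest array. At day 12 the neuron list spans 8.36 to 8.84 in treated and 9.43 to 9.82 in untreated EBs, and the mesenchyme list 11.31 to 11.64 and 10.58 to 10.95.

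The 9 genes did not follow one pattern over the 24 arrays. Pearson's r of log2 signal, given as a description because the arrays share days and treatments, was 0.94 between Prom1 and Nrcam, 0.91 between Vim and Ncam1 and 0.91 between Fabp7 and Msi1. Between members of different pairs it fell as low as -0.16, for Vim and Prom1, with -0.13 for Vim and Nrcam, -0.060 for Prom1 and Ncam1 and -0.039 for Ncam1 and Nrcam. Slc1a3 had its highest r with any other of the 9 genes with Fabp7 (0.58) and its lowest with Vim (0.10). Among 3957 genes whose 8 group means spanned at least 1 on the log2 scale, the 3 most like each gene were found by the same measure. For Nes they were Rgmb (0.94), Dusp8 (0.89) and Faxc (0.89), and for Vim they were Flrt3 (0.99), Igf2 (0.98) and Mex3b (0.98). For Fabp7 they were Slit1 (0.95), Dach1 (0.95) and Zic1 (0.95), and for Slc1a3 they were Ntrk2 (0.94), Slc48a1 (0.92) and Adarb1 (0.90). For Msi1 they were Fzd3 (0.98), Ppm1l (0.98) and Dusp18 (0.97), for Ptprz1 they were Ntn1 (0.96), Ttc6 (0.95) and Zfp41 (0.94), and for Ncam1 they were Fzd1 (0.99), Chst2 (0.98) and Chd3 (0.98). Prom1 and Nrcam were among the 3 most like each other, and the other 2 places of each went to Lrig1 and Zswim5, with r of 0.93 for both beside Prom1, and of 0.94 for Lrig1 and 0.95 for Zswim5 beside Nrcam.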

How the data were processed

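The deposited table holds log2 signals of 24 arrays, which the authors made with RMA in Affymetrix Expression Console, per the submitters' processing notes. Software versions and the genome build: not given in the sources used here. Of 35556 probe sets, 21789 had 1 symbol in the platform annotation, 1621 several and 12146 were not listed there. By Entrez identifier 21698 matched the RefSeq gene table of GRCm38.p6, which altered 0 symbols. A gene with several such probe sets (999 genes) was represented by that of highest mean, leaving 19938 genes, and each of the 9 genes had 1. No pair of arrays was identical (smallest SD of their difference 0.175).

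Group means were fitted to all arrays with lmFit of limma 3.58.1 (R 4.3.3), leaving 16 residual degrees of freedom. After eBayes, p-values were adjusted by Benjamini and Hochberg over all genes separately in 15 contrasts, with a threshold of 0.05. The fit was tested on simulated data. Python 3.11.15 with pandas 2.3.3, numpy 2.4.6 and matplotlib 3.10.9 made tables and plots. The 9 genes and 16 gene lists were chosen with earlier results of these data known. From a list, at most 4 genes of smallest p were named per contrast, along with Sox1, Pax6, Tubb3, Pou5f1, Col1a1 and Ttr. Gfap, Ncam2, Cntn2, Cntn3, Fabp4 and Fabp6 were added after their values were seen. List counts cover the genes analysed here. Motifs were searched in the 250 bases before each start, not in bases after it.

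Pairing was examined through the residuals of arrays with equal replicate numbers on one day. Their correlations exceeded 0.1 throughout at day 6 (lowest 0.14), day 8 (lowest 0.11) and day 12 (lowest 0.12), unlike day 4 (lowest -0.05). For replicate 3, however, another number correlated more highly at day 8 (0.13 beside 0.11) and day 12 (0.26 beside 0.25). Equal numbers thus looked like pairs at day 6, but only for replicates 1 and 2 at days 8 and 12. The main fit did not use pairs, and blocks by replicate number were run as other settings. The labels mention 3 independent experiments without tying a number to one. Further settings, 33 in all, covered dropping genes under the 40th percentile (7.61), which removed Ptprz1, 2 other normalizations, averaged probe sets, limma's trend, robust and array-weight options, blocks by replicate number, fits limited to the groups in question, and omission of every array singly.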

Additional observations from a re-analysis of the deposited data

Results flagged for a closer look

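The treatment effect changed between day 8 and day 12 for 3 of the 9 genes by a test of the difference itself. Among all genes 5.20% were called in that test, 2.57% in the same direction. For Nes the effect was -1.09 at day 12 and -0.045 at day 8, a change of -1.04 (adjusted p = 0.015). For Ptprz1 it was -2.13 at day 12 and -0.74 at day 8, a change of -1.40 (adjusted p = 0.00504). For Msi1 it was -0.83 at day 12 and -0.26 at day 8, a change of -0.57 (adjusted p = 0.0473). With arrays of the 4 compared groups alone, limma's adjusted p was 0.0552 for Nes, 0.0584 for Ptprz1 and 0.142 for Msi1, so none passed. The Msi1 call was lost in 11 of 20 other settings. Day 12 EBs had left the drugs and had been in serum-free medium for 4 days, and these cannot be told apart from the passing of time. Groups of 3 arrays were not searched for single outlying arrays.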

How the results depend on the processing

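The 6 calls between treated and untreated EBs at day 12 held in every setting that tested them; Ptprz1 was not tested above the 40th percentile. Over all 15 contrasts, 521 of 534 values of called results kept their call and direction in the other settings and 373 of 414 with an array left out, and the rest lost the call; the cause was not tested. With arrays of the compared groups alone, the spread came from fewer arrays and from those groups only. The number of the 9 genes called was then 0 at day 8 and 0 for the change of the effect between days 8 and 12. In that setting limma called 0 and 224 of all 19938 genes (3969 and 4049 at an unadjusted p under 0.05), against 1781 and 1037 with all arrays. Array weights gave 8 genes for untreated EBs at day 6 relative to day 4, 2 for the change of the effect between days 4 and 6 and 3 for that between days 6 and 8, beside 11685, 614 and 1390 of all genes, against 8379, 19 and 80 without weights. With each array left out in turn the number called lay between 1 and 2 at day 6, 1 and 5 at day 8, and 0 and 2 for the change between days 6 and 8. At day 8 it was 1 without treated replicate 1 or untreated replicate 2 and 2 without treated replicate 3 or untreated replicate 3, while the calls over all genes numbered 334, 418, 624 and 1197 in that order. The replicate block within a day gave 3, 5 and 7 genes at days 6, 8 and 12, adding Ncam1, Vim and Fabp7, while the calls over all genes numbered 721, 2822 and 4401, against 366, 1781 and 3563 without it; the block over all arrays passed Nrcam at untreated day 6 relative to day 4 (adjusted p = 0.0275) and at treated day 12 relative to day 8 (0.03) and to day 4 (0.0121), and Prom1 at treated day 6 relative to day 4 (0.0395).

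Directions turned in 11 of 135 results, none of them called (lowest adjusted p 0.76). For the treatment difference at day 4, array weights gave -0.093 for Nes, -0.072 for Prom1 and -0.039 for Nrcam, quantile normalization -0.031 for Prom1, -0.0084 for Msi1 and -0.037 for Nrcam, and centring -0.0069 for Nrcam. Fabp7 in untreated EBs at day 6 relative to day 4 was -0.13 after quantile normalization and -0.034 after centring. With an array left out, the day 4 differences ran from -0.13 to 0.19 for Nes, -0.037 to 0.15 for Slc1a3, -0.047 to 0.056 for Prom1, -0.052 to 0.080 for Msi1 and -0.045 to 0.061 for Nrcam. Others ran from -0.12 to 0.044 for Ptprz1 at day 6, -0.17 to 0.082 for Nes at day 8, -0.058 to 0.20 for Slc1a3 at day 12 and -0.15 to 0.24 for Fabp7 in untreated EBs at day 6 relative to day 4. The change of the effect between days 8 and 12 ran from -0.15 to 0.60 for Fabp7 and from -0.36 to 0.13 for Prom1.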
